A study of Mus musculus with 14 samples.

Results

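In the livers of mice with an inducible YAP transgene, the positions of H3K4me1 and H3K4me2 were set against each other. The YAP lists held 6274 H3K4me1 regions and 51676 H3K4me2 regions, together 57950 of the 123145 regions listed for the whole series. A shared stretch of 1 bp or more counted as overlap. An H3K4me1 region flanked H3K4me2 if it shared no base with it and lay within 2 kb of it. A gene boundary is the window of 1 kb to either side of an annotated end of a protein-coding gene, and the body is the gene without its outermost 1 kb at each end.

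The series profiled livers of C57BL/6 mice by chromatin immunoprecipitation and sequencing with antibodies to H3K4me1, H3K4me2 and LSD1, in 2 libraries per antibody and genotype, with 1 input library per genotype. The YAP mice carried a transgene for YAP, a co-activator of TEAD transcription factors held in check by Hippo signalling, and doxycycline in the drinking water (50 mg per L, 10 days) switched it on. The wild-type mice (WT) are the comparison group. The labels record doxycycline for every sample, without saying whether WT mice drank it, and give no promoter for the transgene, no sex, no age and no number of animals. Each antibody and genotype has 1 list for its 2 replicates, so no difference below can be set against the spread between replicates and no p-value is given. The intervals in brackets are 95% intervals of counting error only (Wilson's method for a share, Newcombe's for a difference of shares), and they treat regions as independent although neighbouring regions are not. The lists give no read numbers, so the depth is unknown.

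H3K4me1 and H3K4me2 are histone H3 with 1 or 2 methyl groups on lysine 4. H3K4me1 is known for enhancers and for the borders of active promoters, whereas H3K4me2 spans promoters and many active enhancers. LSD1, the demethylase encoded by Kdm1a, removes methyl groups from both forms.

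The H3K4me1 list was short and its regions were narrow. The regions covered 2.30 Mb with a median length of 312 bp (178 to 2483 bp), against 49.0 Mb and a median of 575 bp (182 to 10662 bp) for H3K4me2. The numbers in the names of the H3K4me1 regions ran to 16113, so that the 6274 entries were 38.9% of the highest number, against 84.1% for H3K4me2 and 55.9% for WT H3K4me1. The rule that selected the listed regions is not given in the sources used here. No H3K4me1 region of either genotype lay on chromosome X or Y, whereas YAP H3K4me2 had 950 regions on X and 12 on Y. The deposited −log10 q-value was above 0 for 3896 of the YAP H3K4me1 regions (62.1%) and for 1919 of 5905 WT regions (32.5%). A place that is absent from the H3K4me1 list is therefore not shown to lack the mark.

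The sequences around gene starts show how CG content and the edge of H3K4me2 differ between genes. They are given for 5 genes that recur below, as the strand that is transcribed, 5′ to 3′, from 250 bases before to 50 bases after a start annotated by RefSeq (GRCm38.p6, which has mm10 coordinates). Capitals mark CG dinucleotides, and base 251 is the start. Srgap2 (chr1:131527312-131527611, minus strand), Ptprj (chr2:90580546-90580845, minus strand) and Rere (chr4:150281666-150281965, plus strand) are the genes among the 10 with the most H3K4me1 regions whose window met H3K4me2. Rxra (chr2:27676951-27677250, plus strand) and Nfia (chr4:97581693-97581992, plus strand) were added after their values were seen, as a start beside H3K4me2 and a start far from it.
Srgap2: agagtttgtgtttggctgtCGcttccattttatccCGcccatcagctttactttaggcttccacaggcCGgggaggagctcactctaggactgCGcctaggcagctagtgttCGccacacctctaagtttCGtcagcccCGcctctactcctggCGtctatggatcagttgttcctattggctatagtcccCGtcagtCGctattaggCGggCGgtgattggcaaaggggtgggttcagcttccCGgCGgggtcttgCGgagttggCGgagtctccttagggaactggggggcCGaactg
Ptprj: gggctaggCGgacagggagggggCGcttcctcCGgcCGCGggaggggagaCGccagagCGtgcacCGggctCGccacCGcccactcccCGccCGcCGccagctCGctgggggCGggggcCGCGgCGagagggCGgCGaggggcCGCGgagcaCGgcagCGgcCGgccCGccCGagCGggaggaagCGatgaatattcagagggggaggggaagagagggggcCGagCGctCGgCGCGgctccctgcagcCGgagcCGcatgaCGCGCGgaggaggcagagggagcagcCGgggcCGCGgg
Rere: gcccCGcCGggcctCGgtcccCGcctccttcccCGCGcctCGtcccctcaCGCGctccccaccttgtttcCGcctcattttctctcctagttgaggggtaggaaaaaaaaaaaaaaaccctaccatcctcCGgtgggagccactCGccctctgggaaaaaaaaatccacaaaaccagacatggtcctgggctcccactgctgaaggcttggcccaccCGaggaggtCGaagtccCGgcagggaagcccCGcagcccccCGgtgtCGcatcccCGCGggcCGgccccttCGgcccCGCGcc
Rxra: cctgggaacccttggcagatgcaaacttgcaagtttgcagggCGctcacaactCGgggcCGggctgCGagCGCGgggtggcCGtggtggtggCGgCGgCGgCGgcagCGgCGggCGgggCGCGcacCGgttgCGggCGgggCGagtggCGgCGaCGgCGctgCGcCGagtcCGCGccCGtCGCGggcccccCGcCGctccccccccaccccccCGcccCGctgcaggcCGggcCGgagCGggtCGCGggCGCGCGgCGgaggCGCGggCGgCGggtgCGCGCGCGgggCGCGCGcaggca
Nfia: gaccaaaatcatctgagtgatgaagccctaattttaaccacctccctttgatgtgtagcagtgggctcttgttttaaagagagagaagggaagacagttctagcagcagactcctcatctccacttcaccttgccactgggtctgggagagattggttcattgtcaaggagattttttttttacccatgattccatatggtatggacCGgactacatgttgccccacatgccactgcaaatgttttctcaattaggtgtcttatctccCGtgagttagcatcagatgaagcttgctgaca
The Srgap2 window holds 17 CG dinucleotides, and its last 15 bases are under an H3K4me2 region of 1757 bp. The Ptprj window holds 42, with its first 35 bases under a region of 624 bp, and the Rere window holds 24, with its last 137 bases under a region of 2883 bp. Of the 5 windows only that of Rere has H3K4me2 over the start base. The Rxra window, with 55, lies 65 bp from a region of 1361 bp. A further listed start of Rxra, whose window (chr2:27709042-27709341) is not printed, has 1 CG dinucleotide and lies 5134 bp from H3K4me2. The Nfia window holds 2 and lies 163762 bp from the nearest H3K4me2. At least as many CG dinucleotides were found in 43.1% of all promoter windows for Srgap2, 3.65% for Ptprj, 26.6% for Rere, 0.309% for Rxra and 87.6% for Nfia.

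The marks occupied different places relative to genes. Of the H3K4me1 regions 5588 (89.1%, 88.3 to 89.8) lay in gene bodies and 126 (2.01%) at a boundary, while 150 were within 5 kb of a gene and 410 farther away. H3K4me2 was split between boundaries, with 20761 regions (40.2%, 39.8 to 40.6), and bodies, with 21674 (41.9%). The boundary H3K4me2 lay on the side of the gene start for 14584 regions, on the side of the gene end for 1126 and on both sides for 1248, and the strand was not listed for 3803. The few boundary H3K4me1 regions leaned the other way, with 41 at a start, 61 at an end, 2 on both sides and 22 without a listed strand. The unstated selection of the listed H3K4me1 regions can bear on these shares, and its part was not tested. In WT 93.1% of H3K4me1 regions lay in bodies, 4.06 points more than in YAP (3.05 to 5.07).

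**Figure D1:**
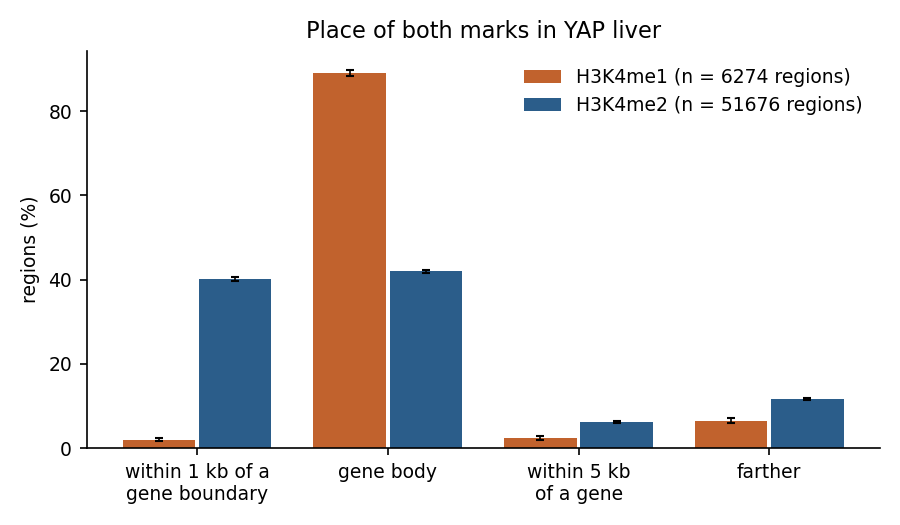
The vertical axis gives the share of regions of each mark in YAP liver (%), the horizontal axis their place relative to protein-coding genes, and the error bars 95% Wilson intervals. H3K4me1 is in bodies in 89.1% of cases, and H3K4me2 is at boundaries in 40.2% and in bodies in 41.9%.

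H3K4me1 regions fell into 3 groups by their distance to H3K4me2. There were 2637 (42.0%, 40.8 to 43.3) on H3K4me2, 1305 (20.8%, 19.8 to 21.8) flanking it within 2 kb and 2332 (37.2%, 36.0 to 38.4) farther away. H3K4me2 covered 38.9% of all H3K4me1 bases, against 2.72% of the body bases of all genes and 4.81% of the body bases of genes with H3K4me1 in the body. Flanking positions, within 2 kb of H3K4me2 but not under it, made up 5.48% of all body bases and 8.80% in the genes with body H3K4me1. The 20.8% counts regions at any place and not body bases, so these base shares are no direct baseline for it. The flanking regions were separated from H3K4me2 by a median of 721 bp (quartiles 299 and 1275), and 193 of them (14.8%) had H3K4me2 within 2 kb on both sides.

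Overlap was mostly containment. Of the 2637 overlapping H3K4me1 regions 1661 (63.0%) were wholly inside an H3K4me2 region, 826 (31.3%) crossed 1 of its edges and 150 (5.69%) reached past both. The H3K4me1 summit was inside H3K4me2 in 89.4% of overlaps. Among the contained regions the H3K4me2 region had a median length of 2555 bp, and the H3K4me1 summit lay a median of 29.5% of that length from the nearer edge. A total of 266 H3K4me2 regions held 2 or more H3K4me1 regions, at most 5.

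Most of the contacts between the marks were inside genes, where 89.1% of all H3K4me1 regions lay. Body H3K4me1 regions overlapped H3K4me2 in 42.9% and flanked it in 20.7%, close to the 42.0% and 20.8% of all H3K4me1 regions. The nearest H3K4me2 of a flanking H3K4me1 region was a body region in 84.1% of cases and a boundary region in 7.13%. The H3K4me2 under an overlapping H3K4me1 region was in a body in 63.6% and at a boundary in 31.0%. From the side of H3K4me2, 2375 regions (4.60%) overlapped H3K4me1 and 3213 (6.22%) had it within 2 kb. Body H3K4me2 overlapped it in 7.29% and flanked it in 10.7%, against 3.17% and 2.98% at boundaries. Split by length into 5 classes, the longest H3K4me2 regions (1507 to 10662 bp) overlapped H3K4me1 in 9.58% and flanked it in 4.82%. The shortest (182 to 281 bp) overlapped it in 2.92% and flanked it in 7.37%.

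Single pairs illustrate the layout. The 5 flanking pairs with the highest authors' score of the H3K4me1 region (a score that is 10 times the deposited −log10 p-value) were in the bodies of Srgap2, Rreb1, Nr5a2, Mettl9 and Cul3. In Srgap2, a GTPase-activating protein that shapes membrane protrusions, the H3K4me1 region of 394 bp (chr1:131422505-131422898, score 97) lay 878 bp from an H3K4me2 region of 212 bp (chr1:131421415-131421626, score 28). In Rreb1, a zinc finger transcription factor, 914 bp of H3K4me1 (chr13:37877257-37878170, score 92) lay 677 bp from 182 bp of H3K4me2. In Nr5a2, the nuclear receptor LRH-1 of bile acid synthesis, the gap was 1421 bp, in Cul3, a ubiquitin ligase scaffold, 431 bp, and in Mettl9, a histidine methyltransferase, 142 bp. WT H3K4me1 was listed at the Mettl9 and Cul3 positions and not at the other 3.

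The 5 overlapping pairs chosen in the same way included those in Sec63, Rai1, Hnrnpc and Arid1a. In Sec63, a component of protein import into the endoplasmic reticulum, 407 bp of H3K4me1 (chr10:42765249-42765655, score 100) were inside 3798 bp of H3K4me2 (chr10:42762122-42765919, score 388). Hnrnpc, a splicing regulator, had the same arrangement, with 614 bp inside 5146 bp. In Rai1, a chromatin-associated regulator, H3K4me2 was the shorter mark, with 210 bp against 432 bp of H3K4me1 (chr11:60142728-60143159). Arid1a, a subunit of SWI/SNF remodellers, had 1205 bp of H3K4me1 over 677 bp of H3K4me2.

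Along the direction of transcription H3K4me1 was most frequent between 2 and 3 kb past the start. The profile was drawn over the 9642 genes with H3K4me2 within 1 kb of their listed start, whether or not they had H3K4me1, and counts in each 1 kb bin the genes that reach into it. H3K4me2 was present in 96.2% of genes between 0 and 1 kb, in 63.6% between 2 and 3 kb and in 16.2% between 4 and 5 kb. H3K4me1 was in 0.27% between 0 and 1 kb, in 2.25% between 1 and 2 kb, in 4.06% (378 genes) between 2 and 3 kb and in 4.02% between 3 and 4 kb. Between 9 and 10 kb it was in 1.98%. Upstream it reached at most 0.95%, in the bin from -3 to -2 kb. The WT H3K4me1 list over the same genes gave 4.10% between 2 and 3 kb and 0.69% from -3 to -2 kb. In the 1567 genes with a listed start that had H3K4me1 in the body and H3K4me2 at a boundary, H3K4me2 was in 95.7% between 0 and 1 kb, 95.9% between 1 and 2 kb, 90.7% between 2 and 3 kb and 69.2% between 3 and 4 kb. H3K4me1 in the same bins was in 1.40%, 13.8%, 24.1% and 23.2% of these genes, so it was most frequent in a bin where most of them still had H3K4me2. These genes were chosen for H3K4me1 in the body, more than 1 kb past the boundary, so their H3K4me1 values are a description.

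**Figure D2:**
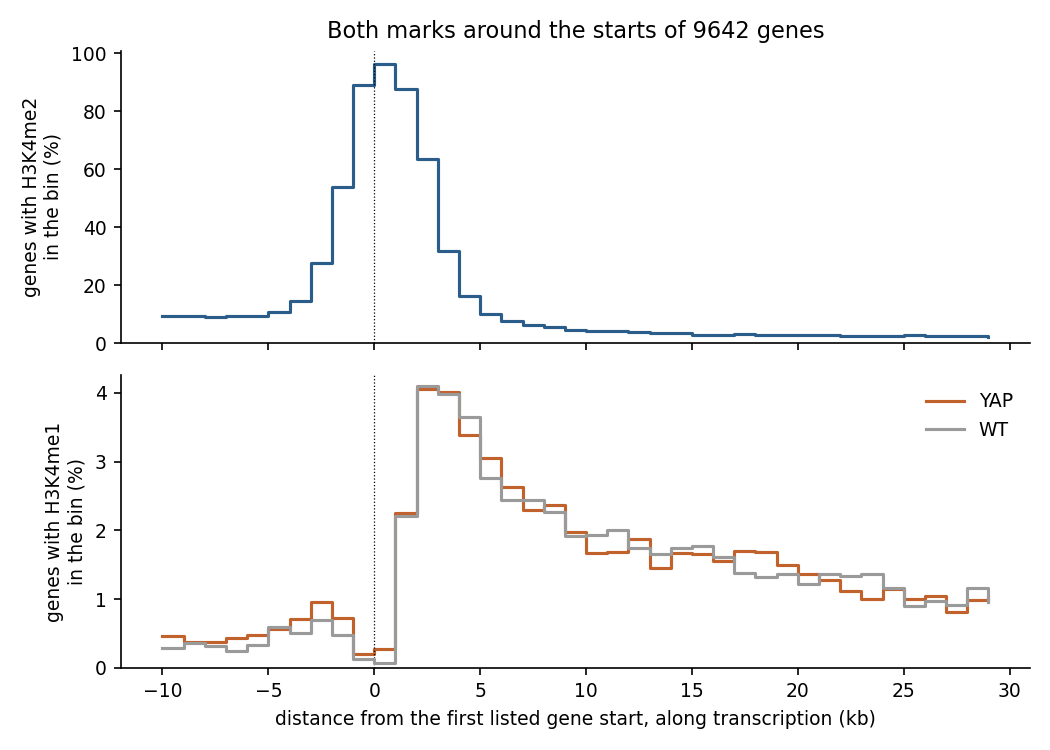
The horizontal axis is the distance from the listed start along transcription (kb, 1 kb bins), and the vertical axes give the share of genes with H3K4me2 (top) or H3K4me1 (bottom) in the bin (%), with YAP and WT as lines in the lower panel. H3K4me2 peaks at the start at 96.2% of genes, and H3K4me1 peaks between 2 and 3 kb downstream at 4.06% in YAP and 4.10% in WT.

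Genes with H3K4me1 in the body and H3K4me2 at a boundary numbered 1932 of 21887 protein-coding genes (8.83%, and 9.35% of the 20665 autosomal genes). A further 182 had body H3K4me1 without boundary H3K4me2, 10795 had boundary H3K4me2 only and 8978 had neither, among them the 2583 genes of up to 2 kb that have no body. H3K4me2 at a boundary was present in 12727 genes, or 58.1% of all. It was present in 91.4% (90.1 to 92.5) of the 2114 genes with body H3K4me1 and in 54.6% (53.9 to 55.3) of the genes without. Genes with both marks had a median length of 58.8 kb, against 18.6 kb with boundary H3K4me2 only.

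The difference was present in every length class over 2 kb. Among genes of 2 to 10 kb boundary H3K4me2 was found in 98.4% of 63 genes with body H3K4me1 and in 55.1% of genes without, at 20 to 50 kb in 94.6% of 632 and 64.8%, and over 200 kb in 81.4% of 221 and 46.9%. The smallest difference, at 50 to 100 kb, was 26.8 points (23.5 to 29.7). The share of genes with both marks was 1.16% at 2 to 10 kb, 25.3% at 100 to 200 kb and 18.2% above 200 kb.

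**Figure D3:**
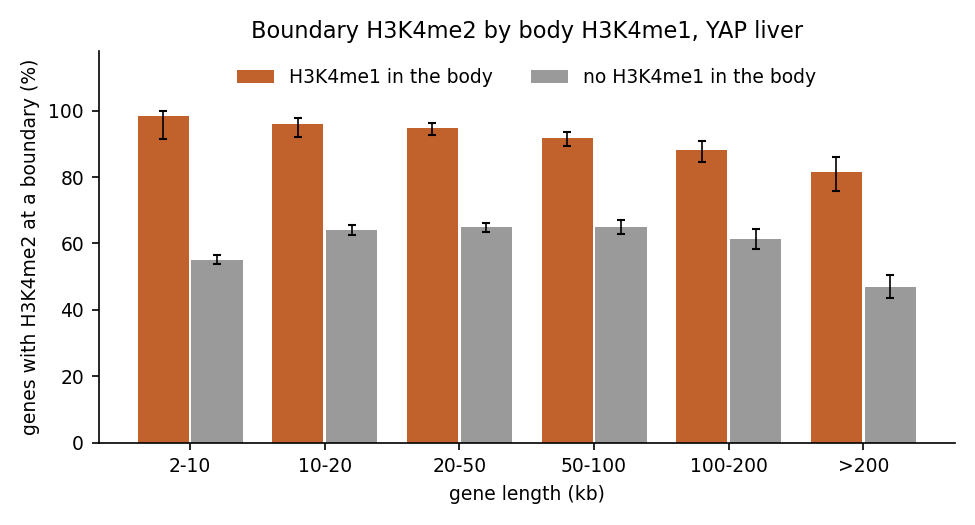
The horizontal axis gives gene length classes (kb) and the vertical axis the share of genes with H3K4me2 at a boundary (%), for genes with and without H3K4me1 in the body in YAP liver, with 95% Wilson intervals as error bars. In each of the 6 classes the genes with body H3K4me1 are higher, for example 94.6% against 64.8% at 20 to 50 kb.

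These genes were chosen for H3K4me2 at a boundary and H3K4me1 in the body, so only the boundary used and the part of the body are described here. H3K4me2 at the start was not particular to them. Between 0 and 1 kb past the listed start it was in 95.7% of them and in 93.6% of genes with boundary H3K4me2 only. Of the 1567 genes with both marks and a listed strand, 1448 (92.4%) had H3K4me2 at the start only, 109 at start and end and 10 at the end only. From the downstream edge of the start H3K4me2 to the first H3K4me1 beyond it the median was 4648 bp (1266 genes), and 384 of these genes (30.3%) had it within 2 kb. Of 4305 body H3K4me1 regions 45.0% lay in the foremost of 5 equal stretches of the gene, followed by 27.2%, 16.0%, 7.62% and 4.20% toward the end. Among 922 flanking H3K4me1 regions in genes with a listed strand, the nearest H3K4me2 was on the side of the start for 543 (58.9%, 55.7 to 62.0). H3K4me2 was also in the body of 1926 of the 1932 genes, counting start regions that reached past 1 kb.

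Their starts were rich in CG dinucleotides. The median number in the 300-base window was 26 for genes with both marks, 20 with boundary H3K4me2 only, 17 with body H3K4me1 only and 3 with neither, and over all 17492 genes with a listed start it was 13. Among genes over 20 kb the medians were 27, 21, 17 and 6 in the same order. H3K4me2 reached into the window in 1253 of the 1567 genes with both marks and a listed start, and it was within 1 kb of the start in 97.4%.

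A minority of genes held much of the body H3K4me1. A single H3K4me1 region was found in 937 of the 1932 genes, 2 to 4 in 691, 5 to 9 in 229 and 10 or more in 75. Those 75 genes held 20.1% of the 5269 regions counted per gene. The 10 genes with the most regions in YAP were Srgap2, Susd6, Ankrd11, Hipk2, Ptprj, Rxra, Mtss1, Jak1, Rere and Zfand3. Ranking by the YAP count favours YAP when their counts are set beside WT below.

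Srgap2 (chr1:131285251-131527531) had 31 body regions in YAP and 4 in WT. Of the 31, 5 were on H3K4me2, 8 flanked it and 18 were farther away, and H3K4me2 over the gene came to 13.4 kb in YAP and 7.64 kb in WT. Ptprj (chr2:90429756-90580694), a receptor tyrosine phosphatase, also had more listed regions in YAP, with 25 against 8. Of the 25, 8 overlapped and 11 flanked H3K4me2. Both genes had H3K4me2 at a boundary in both genotypes. Jak1, the kinase of cytokine receptors, had 22 against 15.

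Susd6 (chr12:80790532-80880833), a membrane protein with a sushi domain, had 28 regions in YAP and 23 in WT, 22 of the 28 more than 2 kb from H3K4me2, and an LSD1 region at its start. Ankrd11, an ankyrin repeat regulator of chromatin, had 27 in YAP and 25 in WT, and all 27 were more than 2 kb from any H3K4me2. Hipk2, a nuclear kinase, had 25 in each genotype. Another 3 of the 10 genes had more regions in WT. In YAP and WT, in that order, Mtss1, an actin-binding scaffold, had 24 and 28, Rere, an atrophin-family coregulator, 20 and 32, and Zfand3, a zinc finger protein, 19 and 31.

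Rxra (chr2:27676445-27763319) encodes the common partner of many nuclear receptors. It had 24 H3K4me1 regions in YAP and 22 in WT, with 12 of the 24 on H3K4me2, 5 flanking it and 7 farther away. H3K4me2 covered 19.4 kb of the gene in YAP and 29.9 kb in WT. In YAP the H3K4me2 lay mainly at the front of the gene and H3K4me1 reached farther into it, as the map of 4 genes shows. The last YAP H3K4me2 region ended 51.8 kb from the 5' boundary and the last H3K4me1 region 68.0 kb. In WT H3K4me2 reached farther, to 58.1 kb, against 51.9 kb for H3K4me1.

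**Figure D4:**
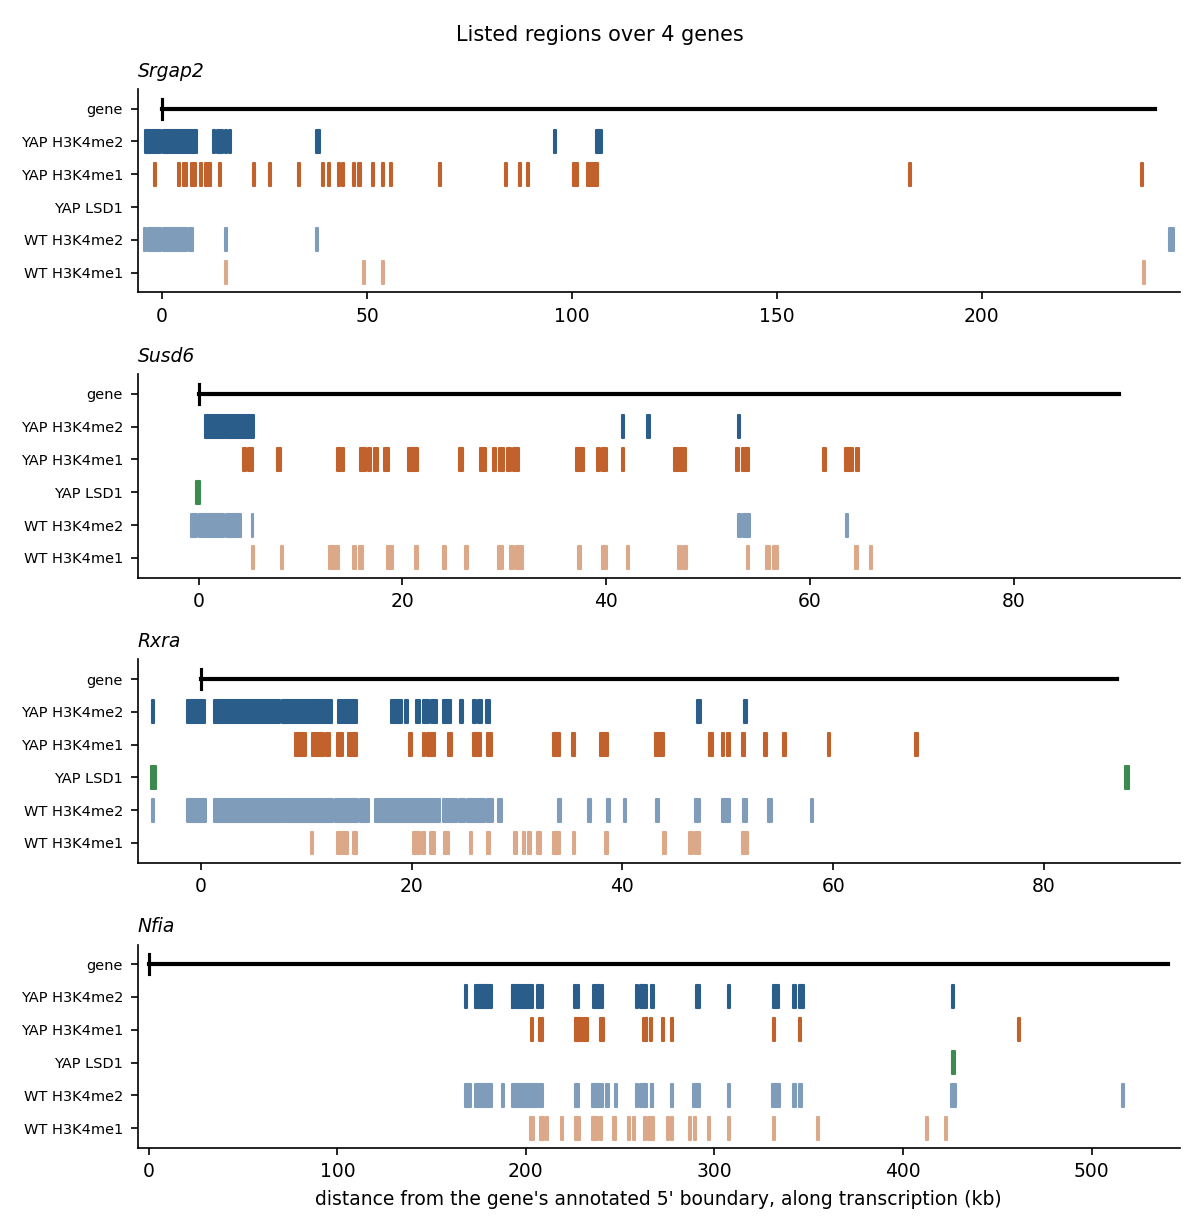
The horizontal axis is the distance from the annotated 5' boundary along transcription (kb), and each row shows the listed regions of 1 mark and genotype over Srgap2, Susd6, Rxra and Nfia as bars. Srgap2 has 31 body H3K4me1 regions in YAP against 4 in WT, Susd6 28 against 23 and Rxra 24 against 22, each with H3K4me2 at the 5' boundary, whereas the H3K4me2 of Nfia begins far inside the gene.

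By density the leading genes were B3gnt2, Abhd17c, Nfe2l2, Susd6 and Zc3h15, ranked among genes with 5 or more regions. B3gnt2, a glycosyltransferase, had 177 H3K4me1-covered bp per kb of body, and Abhd17c, a depalmitoylase, had 158. Nfe2l2, the transcription factor of the oxidative stress response, had 147, from 7 regions of which 6 were on H3K4me2 and 1 flanked it, and an LSD1 region at a boundary. Susd6 had 139. All 5 regions of Zc3h15, which came to 137 bp per kb, were on H3K4me2.

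Among the 182 genes with body H3K4me1 and no boundary H3K4me2, 172 had H3K4me2 in the body. Of the 153 with a listed start, 117 (76.5%) had H3K4me2 within 1 kb of some listed start, which can be internal to the annotated gene. The genes with the most regions were Nfia with 21, Nr3c1 with 11, Nedd4l with 10, Bcl2l1 with 9 and Ctnnd1 with 8. Nfia, a transcription factor of the nuclear factor I family, had 9 of its 21 regions on H3K4me2 and 7 flanking it, and 39.4 kb of H3K4me2 over the gene. Nr3c1, the glucocorticoid receptor, had 6 of 11 on H3K4me2. In WT Nfia had 32 regions and Nr3c1 22, while Nedd4l, a ubiquitin ligase, had 1 and Bcl2l1, the anti-apoptotic BCL-XL gene, 3. Ctnnd1, the catenin that binds cadherins, had 12 in WT, where it also had boundary H3K4me2.

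The same arrangement was described for 15 gene lists, whose 312 members were all found and of which 75 had body H3K4me1 with boundary H3K4me2. Longer genes have more room for H3K4me1, so each count stands beside the median gene length, which was 17.2 kb over all genes. Over 20 kb, 1685 of 10038 genes (16.8%) had both marks.

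The arrangement was found in 40.9% of transcription factors, 52.2% of nuclear receptors and 61.1% of signalling genes of hepatocytes, against 8.83% of all protein-coding genes. Over 20 kb it was found in 8 of 16, 12 of 18 and 11 of 16, against 16.8% of all genes. It was not particular to YAP, since 9, 11 and 10 members of these lists had it in WT. Among hepatocyte transcription factors it was found in 9 of 22 (median length 54.3 kb), led by Rreb1 and Nfib with 13 H3K4me1 regions each and Nr5a2 and Zbtb20 with 7 each. Among nuclear receptors and coregulators it was found in 12 of 23 (109 kb), led by Rxra with 24, the circadian receptor Rora and the coactivator Ncoa2 with 7 each, and the thyroid hormone receptor Thrb with 3. Among signalling receptors and their adaptors it was found in 11 of 18 (92.8 kb), with 13 regions each in the insulin receptor Insr and the PI3-kinase subunit Pik3r1, 9 in Egfr and 5 in the growth hormone receptor Ghr. Of these 12 named genes 10 had more regions in WT, with 23 in Nfib, 20 in Pik3r1, 18 in Insr and 12 in Ncoa2.

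H3K4me2 at a boundary was present in most secreted and metabolic genes of hepatocytes, and in 58.1% of all protein-coding genes. Both marks were found in 12.5% of the secreted and 3.33% of the metabolic genes, against 8.83% of all protein-coding genes. All 24 secreted plasma protein genes (12.9 kb) had boundary H3K4me2, and 3 had body H3K4me1, with 1 region each in ceruloplasmin Cp, coagulation factor F5 and plasminogen Plg. Of 30 liver metabolism genes (18.6 kb) 26 had boundary H3K4me2 and 1 had both marks, Tdo2, the tryptophan dioxygenase. In WT 5 of the 30 had both. Over 20 kb the count was 3 of 9 secreted and 0 of 14 metabolic genes, against 8 of 16 transcription factors and 11 of 16 signalling genes. Among all genes over 20 kb the share was 16.8%.

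Genes of the Hippo pathway and its targets differed in direction between members. Of 30 YAP target genes (60.9 kb) 11 had the arrangement in YAP and 6 in WT, with 42 H3K4me1 regions against 23. Over 20 kb 8 of 20 had it in YAP. Asap1, an Arf GTPase-activating protein, had 11 regions in YAP and 3 in WT, Wwc1, also known as KIBRA, 6 and 2, and Crim1 5 and 0, whereas Dlc1, a GTPase-activating protein, had 6 and 12. Of 20 Hippo pathway genes (79.1 kb) 7 had it in YAP and 6 in WT, with 28 regions in both. Over 20 kb 7 of 17 had it in YAP. The shares of all protein-coding genes in YAP were 8.83%, and 16.8% over 20 kb. Vgll4, a competitor of YAP for TEAD factors, had 11 regions in YAP and 5 in WT. In the same order Pard3, a polarity scaffold, had 8 and 16, Nf2, the merlin gene, 3 and 2, and Yap1 itself 1 and 2.

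Biliary and progenitor markers (15.3 kb) had the arrangement in 4 of 22 genes in YAP and 1 in WT, with 16 regions against 2. Over 20 kb 4 of 10 had it in YAP. Notch2 had 8 regions against 2 in WT, Bicc1 5 against 0, the Notch ligand Jag1 2 against 0 and the cystic kidney gene Pkhd1 1 against 0. The samples are whole liver, so more cells of a type and more of the mark per cell cannot be told apart. Boundary H3K4me2 in YAP was found in 16 of the 22 biliary genes, 6 of 13 macrophage, 6 of 14 endothelial and 4 of 13 stellate and fibroblast markers. It was found in 58.1% of all protein-coding genes and in 24 of 24 secreted hepatocyte genes. The arrangement was found in 0 macrophage (33.4 kb), 0 stellate and fibroblast (18.9 kb) and 1 endothelial marker (53.7 kb), Ets1, with 2 regions. Over 20 kb these were 0 of 9, 0 of 6 and 1 of 11. In WT 1 macrophage marker had it. The shares of all protein-coding genes in YAP were 8.83%, and 16.8% over 20 kb. Lists this short cannot tell these counts from those shares.

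Of 24 growth and death brakes (9.84 kb) 5 had both marks, among them Foxo3 with 8 regions, Foxo1 with 7 and the retinoblastoma gene Rb1 with 5. In WT Foxo3 had 12, Foxo1 11 and Rb1 0. Of 19 genes of LSD1 and its complexes (39.0 kb) 5 had both marks. There were 3 regions in Phf21a, a reader of unmethylated lysine 4, and 1 each in Gfi1 and Gse1. Of 17 H3K4 methyltransferases and demethylases (42.4 kb) 3 had both. There were 2 regions in each of the demethylase genes Kdm5a and Kdm5b and 1 in the methyltransferase gene Kmt2d. Of 23 genes of polyamine metabolism and hypusination (13.8 kb) 3 had both, with 2 regions in Amd1, 1 in Oaz2 and 1 in Azin1. Over 20 kb the counts of these lists, in the same order, were 4 of 10, 4 of 13, 3 of 17 and 1 of 7. The shares of all protein-coding genes in YAP were 8.83%, and 16.8% over 20 kb. In WT 4, 5, 2 and 2 members of these lists had both marks.

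WT liver had the same arrangement in 1694 genes, 7.74% of all. The 1157 genes that had it in both genotypes were 59.9% of the YAP genes and 68.3% of the WT genes. The overlap followed the number of H3K4me1 regions, with 41.3% of the YAP genes with 1 region, 69.8% with 2 to 4, 93.4% with 5 to 9 and 98.7% with 10 or more. It was found in YAP and not in WT for 775 genes (3.54% of all), of which 770 had no body H3K4me1 in WT. The 5 of these with the most regions were Mbnl1 with 17, Rai1 with 8, and Pik3ap1, Otud7b and Nos1ap with 7 each. Mbnl1, a splicing regulator, had 20 H3K4me1 regions in WT and lacked H3K4me2 at a boundary there. The other 4 had boundary H3K4me2 and 0 body H3K4me1 regions in WT, among them Pik3ap1, an adaptor of PI3-kinase, and Otud7b, a deubiquitinase.

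H3K4me1 met H3K4me2 less often in YAP than in WT. The H3K4me2 list covered 49.0 Mb in YAP and 52.2 Mb in WT, and 2.72% and 2.97% of the body bases of all genes. In the genes with body H3K4me1 of each genotype it covered 4.81% of body bases in YAP and 5.93% in WT. The part of this coverage in the differences below was not tested. Of the WT H3K4me1 regions 52.8% were on WT H3K4me2, 19.1% flanked it and 28.0% were farther away. The YAP minus WT difference was -10.8 points for overlap (-12.6 to -9.04), 1.68 points for flanking (0.26 to 3.10) and 9.13 points for farther (7.47 to 10.8). With equal list sizes the overlap difference was -8.76 points (-10.5 to -6.96) and the flanking difference 1.20 points (-0.25 to 2.65). These lists were matched in number of regions and not in bases covered. With only the higher-scoring 50% of each H3K4me2 list the flanking difference was -0.048 points (-1.39 to 1.29), so its direction depended on the list. Among H3K4me1 regions with −log10 q above 0 the overlap difference was -15.4 points.

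**Figure D5:**
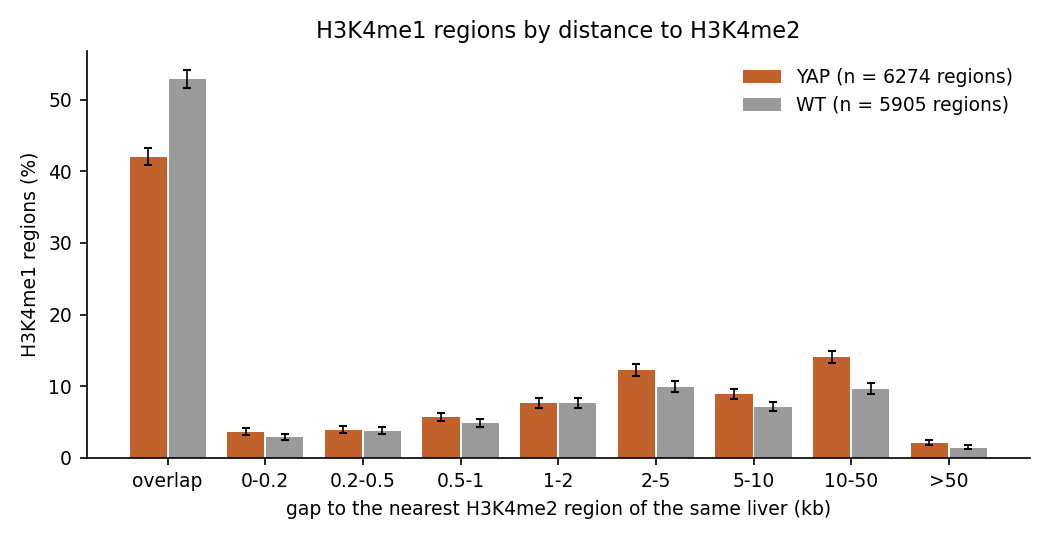
The horizontal axis gives the gap from an H3K4me1 region to the nearest H3K4me2 region of the same genotype (kb, or overlap), and the vertical axis the share of H3K4me1 regions (%), with 95% Wilson intervals as error bars. Overlap is 42.0% in YAP and 52.8% in WT, and the gaps from 10 to 50 kb hold 14.0% and 9.62%.

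The overlap difference was also present at H3K4me1 positions common to both genotypes, but not at the 4802 regions listed in YAP only. Those were on YAP H3K4me2 in 38.4% and on WT H3K4me2 in 38.3%. The 4399 H3K4me1 regions listed in WT only were on YAP H3K4me2 in 34.8% and on WT H3K4me2 in 48.6%. Of the 1472 YAP H3K4me1 regions that met a WT H3K4me1 region, 53.9% (51.3 to 56.4) were on YAP H3K4me2 and 65.3% (62.8 to 67.7) on WT H3K4me2. On WT but not YAP H3K4me2 were 243 of them, in 177 genes, and 75, in 64 genes, were on YAP but not WT H3K4me2. The former included 7 regions in Atxn2, an RNA-binding protein, 4 each in Ankrd11, Jmjd1c, Mtss1, Rere and Rreb1, and 3 in Gata4. The latter included 3 each in Ptprj and Raly. These genes were chosen by their counts after the values were seen. Neighbouring H3K4me1 regions were within 2 kb of each other in 26.2% of gaps in YAP and 35.1% in WT.

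LSD1 was slightly more frequent at the boundaries of genes with both marks. An LSD1 region was within 1 kb of a boundary in 232 of the 1932 genes (12.0%) and in 1003 of the 10795 genes with boundary H3K4me2 only (9.29%), a difference of 2.72 points (1.23 to 4.33). The difference was above 0 in all 6 length classes, and its interval excluded 0 in 3 of them, with 4.81 points at 10 to 20 kb, 3.54 at 20 to 50 kb and 3.46 at 50 to 100 kb. LSD1 regions themselves lay on H3K4me2 in 1914 of 2949 cases (64.9%) and on H3K4me1 in 28 (0.949%), while 30 H3K4me1 regions (0.478%) were on LSD1.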

How the data were processed

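Per the labels' protocols, liver chromatin was cut with micrococcal nuclease before immunoprecipitation, an enzyme that spares nucleosomes, so nucleosome positions can enter the lists beside enrichment. The submitters' processing notes name mm10, BWA, Trimmomatic 0.39, deepTools 3.3.0, SAMtools 1.7, bedtools 2.26.0 and Picard 1.126. Which program called the regions, and how the inputs entered, is not given in the sources used here. The deposited score of the histone regions ranked regions within a list, the deposited signal column (an enrichment value without a stated definition) broke ties, and the deposited −log10 p-values and q-values described or filtered the H3K4me1 lists. None was compared between genotypes as a level.

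Regions on chromosomes 1 to 19, X and Y were used, and overlapping LSD1 regions were merged (3353 to 2949 in YAP). Gaps, overlaps and gene positions were computed with Python 3.11.15, numpy 2.4.6 and pandas 2.3.3, and the functions were checked on simulated regions against bedtools 2.31.1. Gene positions and promoter windows came from RefSeq tables of GRCm38.p6, where 17492 of 21887 protein-coding genes had a listed start and strand. Each region was assigned to the first that applied of boundary, body, within 5 kb of a gene, and farther.

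Named genes were the 10 with the most body regions, the 5 with the greatest density, the 5 without boundary H3K4me2, the 5 highest-scoring flanking and overlapping pairs, up to 4 per list, and the 5 with the most regions and no such arrangement in WT, with predicted genes skipped; a few genes this rule names are not reported here. The members, lists and tests were chosen with earlier results of these data known. Alternatives were the gap, the boundary width, the gene set, the overlap minimum and stricter lists; equal list sizes and the alternatives for the overlap difference were chosen after seeing the data.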

Additional observations from a re-analysis of the deposited data

How the results depend on the processing

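No paired analysis was possible because each antibody and genotype has 1 list for both replicates, and for the same reason no replicate was left out. Of 48 alternatives 22 stayed within the reported intervals or within 1.5 times the reported count, 25 moved and 1 reversed. A wider or narrower window changes its own count by construction, and for the other shifts the cause was not tested.

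The overlap of H3K4me1 with H3K4me2 was 37.5% when at least 50% of the H3K4me1 region had to be covered, 44.8% with H3K4me1 regions of −log10 q above 0 and 23.8% with the higher-scoring 50% of H3K4me2. Flanking was 13.2% within 1 kb, 33.0% within 5 kb and 17.0% with the higher-scoring H3K4me2. H3K4me2 regions with H3K4me1 on them or nearby, 10.8% in all, were 8.06% within 1 kb, 16.2% within 5 kb, 7.51% with q above 0 and 9.39% with the higher-scoring H3K4me2. H3K4me1 in bodies was 84.9% with a boundary of 2 kb and 90.0% with q above 0. H3K4me2 at boundaries was 33.7% with 500 bp, 50.9% with 2 kb, 46.4% with all annotated genes and 62.4% with the higher-scoring regions. Boundary H3K4me2 among genes with body H3K4me1 was 89.1% with 500 bp, 93.1% with 2 kb and 89.1% with the higher-scoring H3K4me2. The genes with both marks numbered 1459 to 2089, and the list members 55 to 75. The share also found in WT was 43.1% with q above 0.

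The flanking difference between YAP and WT was 4.00 points within 5 kb, 3.59 points with q above 0 and -0.048 points, reversed, with the higher-scoring H3K4me2. The overlap difference was -15.4 points with q above 0, -6.96 points with the higher-scoring H3K4me2 and -8.76 points with equal list sizes. The LSD1 difference stayed between 1.85 points (boundary of 500 bp) and 3.40 points (boundary of 2 kb).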

Other observations

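H3K4me1 away from protein-coding genes was partly in other annotated genes. Of the 410 YAP H3K4me1 regions more than 5 kb from any protein-coding gene 146 (35.6%, 31.1 to 40.4) were inside another annotated gene. Neat1, the long noncoding RNA that builds paraspeckles, held 4 in YAP and 3 in WT, and Dleu2, the host transcript of a microRNA cluster, held 3 in YAP and 0 in WT. Of the 410 regions 104 (25.4%) were on H3K4me2, 86 (21.0%) flanked it and 220 (53.7%) were farther away. These genes were chosen after their values were seen.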
